A study of Drosophila melanogaster with 6 samples.

Results

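Once a replication origin has fired, a set of enzymes copies both strands and repackages the new DNA. The genes described here encode the proteins of the moving replication fork and the enzymes that supply its building blocks. They were defined as 31 named genes of this machinery, and all probe sets that the array's annotation assigns to one of them were taken. Of the 31 genes, 28 had a probe set of their own, 1 each, out of 11982 genes with a probe set of their own on the array. No probe set matched the catalytic subunit of DNA polymerase delta (PolD1), topoisomerase II (Top2) or the small subunit of ribonucleotide reductase (RnrS) by name. These genes were not analysed here. In the annotation used, 4720 of 18769 probe sets of fly transcripts had no gene named, and some of those may measure them. RpA-70 was stored under the symbol RPA1.

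Fork genes belong to a division of labour that is well understood. DNA polymerase alpha and its primase start each new strand, polymerase epsilon extends the leading strand, and polymerase delta extends the lagging strand in short Okazaki fragments. The ring-shaped clamp PCNA, opened and closed by the clamp loader RFC, holds the polymerases on the DNA, while RPA coats single strands. Many of these genes are transcribed at their highest in late G1 and S phase.

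Drosophila S2 cells, an embryonic line with features of blood cells, were treated with dsRNA against spotted-dick in 3 samples and with dsRNA against GFP in 3 control samples, all harvested after 5 days. S2 cells take up such dsRNA from the medium and destroy mRNA of the same sequence. The spotted-dick gene, now named pita, encodes a zinc-finger DNA-binding protein, and GFP is a jellyfish protein with no fly counterpart. Each sample was hybridised to 1 Affymetrix Drosophila_2 array. The labels name a single dsRNA per gene and do not say whether replicates were separate cultures, so p-values measure only the spread between these samples. All spotted-dick RNAi arrays were scanned later than the GFP RNAi arrays, and effects of group and of scan order cannot be told apart.

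The knockdown was visible in every array. The pita signal as deposited was 25.9, 46.6 and 28.7 in spotted-dick RNAi, against 335.9, 333.2 and 269.7 in GFP RNAi. Arrays differed in brightness: their trimmed mean signal was 125.4 to 138.8 in spotted-dick RNAi and 125.8 to 189.6 in GFP RNAi. They were therefore quantile-normalized, and the signals below are normalized unless called deposited. Changes are spotted-dick RNAi minus GFP RNAi in log2(signal + 16), with n = 3 arrays each, from limma fitted on all tested probe sets. A gene counts as called where the p-value, adjusted by Benjamini-Hochberg over all tested probe sets, lies under 0.05. Of the blood cell markers, Hml, srp, crq and eater exceeded 17.4 on all 6 arrays as deposited, while NimC1 and Sr-CI did so on none. That background level is the signal below which 95% of the values of control probe sets for foreign sequences lay.

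No replication fork or nucleotide supply gene was called in either direction. Of the 28 genes 27 passed the filter on dim probe sets and were tested, and 0 were called by limma. Of all 11261 tested probe sets 2.03% were called, 0.604% higher and 1.43% lower in spotted-dick RNAi. At an unadjusted p under 0.05 there were 3 such genes, Caf1-55, asf1 and dUTPase, beside 12.3% of all tested probe sets. The changes of the 27 genes ran from -0.11 for Prim1 to 0.35 for asf1. Their median change was 0.023, and that of all tested probe sets was 0.007. In RNA of whole cultures, fewer cells in S phase and less RNA per cell cannot be told apart. In the same arrays pita had a change of -2.55 ± 0.16 (SE, limma adjusted p = 6.59e-08) and Orc4, a subunit of the origin recognition complex, one of -2.54 ± 0.20 (SE, limma adjusted p = 1.42e-06).

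**Figure D1:**
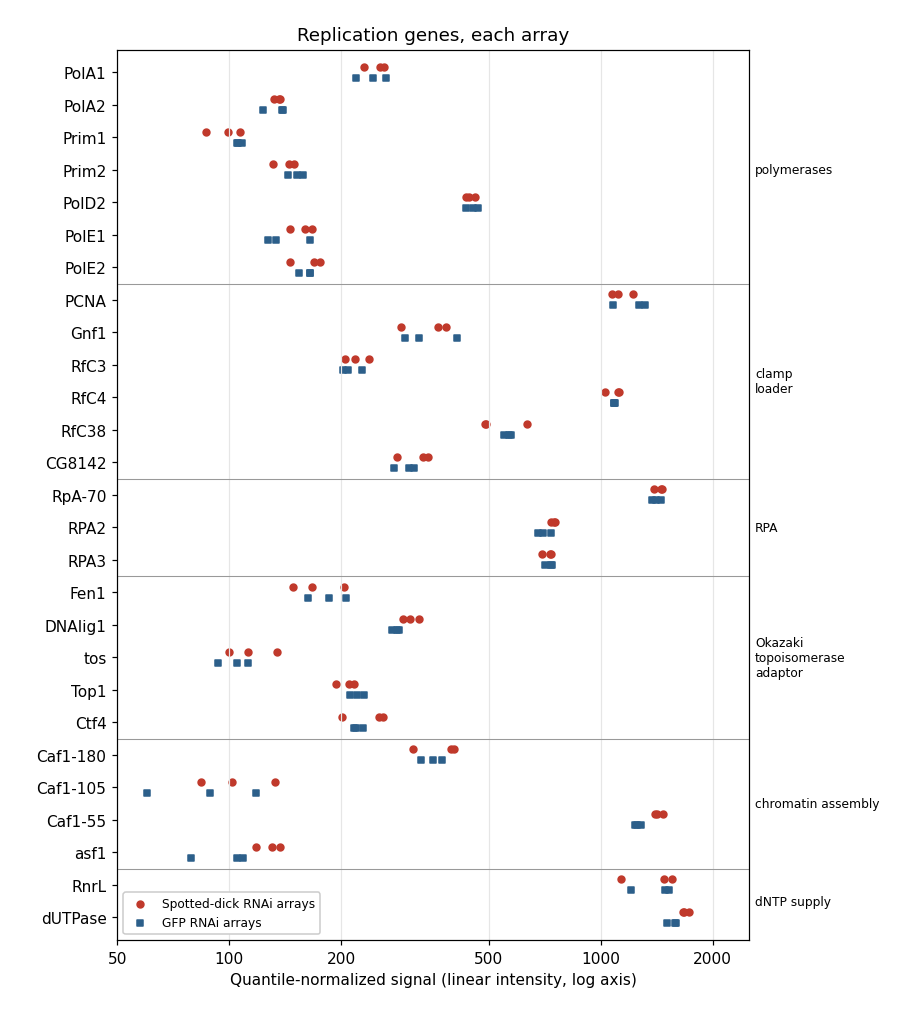
Quantile-normalized signal of the 27 tested replication genes on each array, on a log axis, with the 3 spotted-dick RNAi arrays (circles) above the 3 GFP RNAi arrays (squares) in each row and genes grouped by role. The groups overlap for most genes, and the spotted-dick RNAi arrays lie wholly above the GFP RNAi arrays for DNAlig1, Caf1-55, asf1 and dUTPase.

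After quantile normalization these comparisons were narrow enough to bound the changes, and all intervals given here are from that fit. The 95% confidence intervals of the 27 genes spanned ratios, spotted-dick RNAi over GFP RNAi, from 0.782 (Prim1) to 1.56 (Caf1-105). For 25 of 27 genes (92.6%) the interval lay wholly within a 1.5-fold change in either direction, against 64.2% of all tested probe sets. The exceptions were Caf1-105 and asf1, whose upper bounds were 1.56 and 1.54. A fall of 1.5-fold lay outside the interval of every one of the 27 genes, and outside that of 80.5% of all tested probe sets. For 21 of 27 genes (77.8%) the interval lay within a 1.25-fold change, against 32.4% of all tested probe sets. Their probe sets were also bright: 26 of 27 lay above the median signal level of tested probe sets, and their median standard error was 0.095 against 0.13. The part of brightness in the narrower intervals was not tested. As deposited, the changes of the 27 genes ran from -0.362 to 0.098, with an SE of 0.216 for asf1. The bounds above therefore hold for the normalized signals only.

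**Figure D2:**
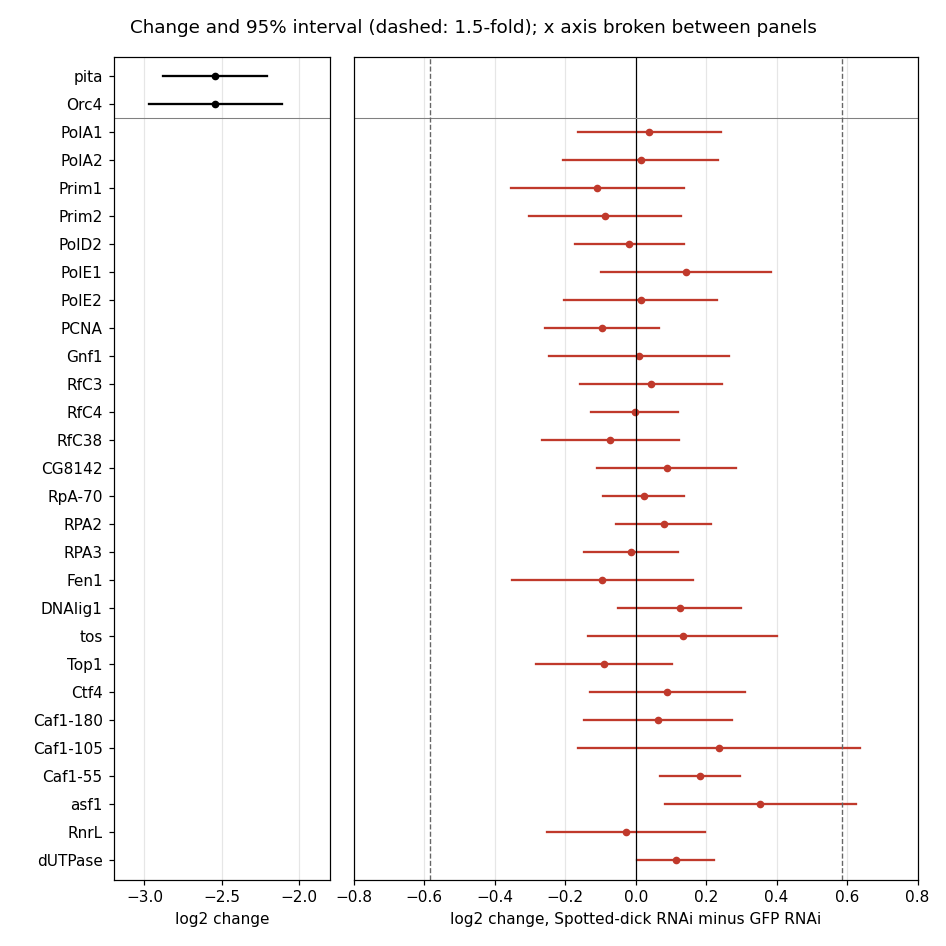
Log2 change, spotted-dick RNAi minus GFP RNAi, with its 95% confidence interval for pita and Orc4 (black, left panel) and the 27 tested replication genes (red, right panel), with dashed lines at a 1.5-fold change and the axis broken between panels. The intervals of 25 of 27 replication genes lie between the dashed lines, while pita and Orc4 lie near -2.5.

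Polymerase and primase genes were close to level between the groups. PolA1, the catalytic subunit of DNA polymerase alpha, had signals of 260.9, 230.7 and 255.4 in spotted-dick RNAi, against 218.9, 244.3 and 264.0 in GFP RNAi. The 3 values of spotted-dick RNAi lay inside the range of GFP RNAi, and the change was 0.038 ± 0.095 (SE, limma adjusted p = 0.913). Its accessory subunit PolA2 had signals of 137.1, 132.2 and 136.1 in spotted-dick RNAi, against 123.4, 138.6 and 139.6 in GFP RNAi. Again all values of spotted-dick RNAi fell within the range of GFP RNAi.

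The primase subunits make the short RNA primers that polymerase alpha extends. Prim1, the catalytic subunit, had 86.8, 99.0 and 107.0 in spotted-dick RNAi, against 108.0, 105.5 and 105.1 in GFP RNAi. Replicate 1 of spotted-dick RNAi was the lowest array, and the change of -0.11 ± 0.12 (SE) was the most negative of the 27 genes (limma adjusted p = 0.767). The large subunit Prim2 had a change of -0.087, with 131.0, 149.2 and 145.1 in spotted-dick RNAi, against 157.9, 144.1 and 152.6 in GFP RNAi, and overlapping groups.

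Among the elongating polymerases, PolD2, the accessory subunit of polymerase delta, had 443.3, 457.4 and 434.2 in spotted-dick RNAi, against 432.8, 452.0 and 468.1 in GFP RNAi. The change was -0.018 ± 0.072 (SE), and the interval ran from a ratio of 0.887 to 1.10. PolE1, the catalytic subunit of polymerase epsilon, had 160.5, 145.8 and 166.7 in spotted-dick RNAi, against 133.6, 127.6 and 164.8 in GFP RNAi. GFP replicate 3 lay among the spotted-dick RNAi values, and the change of 0.14 ± 0.11 (SE) was not called (limma adjusted p = 0.674). Its partner PolE2 averaged 163.7 ± 15.4 in spotted-dick RNAi and 161.6 ± 6.5 in GFP RNAi (SD, n = 3 each). PolD3, another polymerase delta subunit, had deposited signals of 3.6, 13.3 and 3.4 in spotted-dick RNAi, against 1.7, 4.3 and 1.8 in GFP RNAi. All 6 lay under the background level of 17.4, and the filter removed PolD3.

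PCNA is the clamp on which many fork proteins gather and a common marker of S phase. Its signals were 1116.0, 1073.0 and 1223.6 in spotted-dick RNAi, against 1077.8, 1269.0 and 1312.3 in GFP RNAi. The lowest values of both groups were nearly equal and the groups overlapped, with a change of -0.096 ± 0.076 (SE, limma adjusted p = 0.672). Its interval ran from a ratio of 0.836 to 1.05.

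The clamp loader RFC is built of a large and several small subunits, and none of the 5 measured was called. Gnf1, the large subunit, had 383.5, 290.1 and 363.7 in spotted-dick RNAi, against 297.6, 324.0 and 410.6 in GFP RNAi, so the arrays of both groups ranged widely around similar means (345.8 ± 49.2 and 344.1 ± 59.1, SD). RfC4, a small subunit, had signals of 1029.1, 1116.6 and 1109.6 in spotted-dick RNAi, against 1084.0, 1092.2 and 1084.7 in GFP RNAi. Its GFP RNAi values lay within the range of spotted-dick RNAi, and its change of -0.003 ± 0.058 (SE) was the one closest to 0 among the 27 genes. RfC3 had a change of 0.044, RfC38 one of -0.072 and CG8142, grouped here with the small subunits, one of 0.088, all with overlapping groups.

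RPA transcripts were close to level as well. RpA-70, the large DNA-binding subunit, had 1388.0, 1448.6 and 1464.4 in spotted-dick RNAi, against 1373.0, 1454.7 and 1405.6 in GFP RNAi. RPA2 had 751.1, 736.3 and 748.2 in spotted-dick RNAi, against 736.3, 700.1 and 678.2 in GFP RNAi, where the groups met at the highest GFP RNAi array. RPA3, the smallest subunit, averaged 719.8 ± 20.9 in spotted-dick RNAi and 726.5 ± 15.5 in GFP RNAi (SD, n = 3 each). Changes were 0.023, 0.079 and -0.013 in that order, with limma adjusted p-values of 0.910, 0.676 and 0.957.

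Enzymes that finish Okazaki fragments showed no common direction. Fen1, which cuts the displaced flaps, had 166.7, 148.5 and 203.2 in spotted-dick RNAi, against 206.2, 185.2 and 163.3 in GFP RNAi, with overlapping groups and a change of -0.095. DNAlig1, the ligase that seals the nicks, had 293.2, 306.8 and 324.2 in spotted-dick RNAi, against 274.3, 285.6 and 283.1 in GFP RNAi. The groups did not overlap, but the change of 0.13 ± 0.08 (SE) was not called (limma adjusted p = 0.588). The exonuclease gene tos had a change of 0.13. Top1, which relaxes the DNA ahead of the fork, had one of -0.089, and Ctf4, an adaptor that ties polymerase alpha to the helicase, had one of 0.090, each with overlapping groups.

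Histone chaperones that load nucleosomes behind the fork, asf1, Caf1-105 and Caf1-55, had the most positive changes among the 27 genes, and none was called. CAF-1 deposits histones H3 and H4 at PCNA, and Asf1 hands these histones to it. The asf1 signals were 136.7, 118.4 and 130.2 in spotted-dick RNAi, against 79.0, 104.9 and 109.2 in GFP RNAi. All 3 spotted-dick RNAi arrays lay above all GFP RNAi arrays, with GFP replicate 1 the lowest. The change was 0.35 ± 0.13 (SE, limma adjusted p = 0.228), and it was 0.51 and 0.16 within wash stations 1 and 2. Without GFP replicate 1 it was 0.23 (limma adjusted p = 0.578). Caf1-55, a histone-binding subunit that also serves other chromatin complexes, had 1395.2, 1415.4 and 1468.6 in spotted-dick RNAi, against 1279.5, 1234.7 and 1251.7 in GFP RNAi. These groups were well apart relative to their spread, but the change was only 0.18 ± 0.05 (SE, limma adjusted p = 0.117), a ratio of 1.13, and 0.15 and 0.20 within stations 1 and 2.

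The other CAF-1 subunits overlapped between the groups. Caf1-180, the large subunit, had 402.1, 312.6 and 395.2 in spotted-dick RNAi, against 327.3, 353.8 and 373.7 in GFP RNAi. Caf1-105, the middle-sized subunit, had 101.7, 84.0 and 132.9 in spotted-dick RNAi, against 60, 118.3 and 88.9 in GFP RNAi. Its change of 0.24 ± 0.19 (SE) had the widest interval of the group. As deposited, most genes were lower in spotted-dick RNAi, and GFP replicates 1 and 2 were the brightest arrays. There asf1 was the only 1 of the 27 with a change above 0, at 0.098.

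Ribonucleotide reductase makes deoxynucleotides, and dUTPase keeps uracil out of the DNA. RnrL, the large reductase subunit, had 1479.1, 1131.8 and 1550.0 in spotted-dick RNAi, against 1204.5, 1529.2 and 1492.4 in GFP RNAi. In both groups 1 array was well below the other two, and the change was -0.027 ± 0.105 (SE, limma adjusted p = 0.949). The dUTPase signals were 1664.9, 1678.1 and 1728.9 in spotted-dick RNAi, against 1584.1, 1507.9 and 1594.4 in GFP RNAi. They did not overlap, with a change of 0.11 ± 0.05 (SE, limma adjusted p = 0.383). In all, the groups did not overlap for 4 of 27 genes, each with the spotted-dick RNAi arrays above, and for 0 with them below. Among all tested probe sets these shares were 9.52% above and 8.29% below.

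Part of the replication genes shared a pattern within groups. RnrL, PCNA, PolA1, PolA2, Gnf1, tos, Caf1-180, Caf1-105 and asf1 had their lowest spotted-dick RNAi value in replicate 2 and their lowest GFP RNAi value in replicate 1. These were 9 of the 27 genes, while 13.8% of all tested probe sets had this pattern. It was also the most common such pattern among all tested probe sets. No replication gene was lowest in replicate 3 of both groups, a pattern of 12.8% of all tested probe sets. This grouping was made after the values were seen and describes these arrays only.

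**Figure D3:**
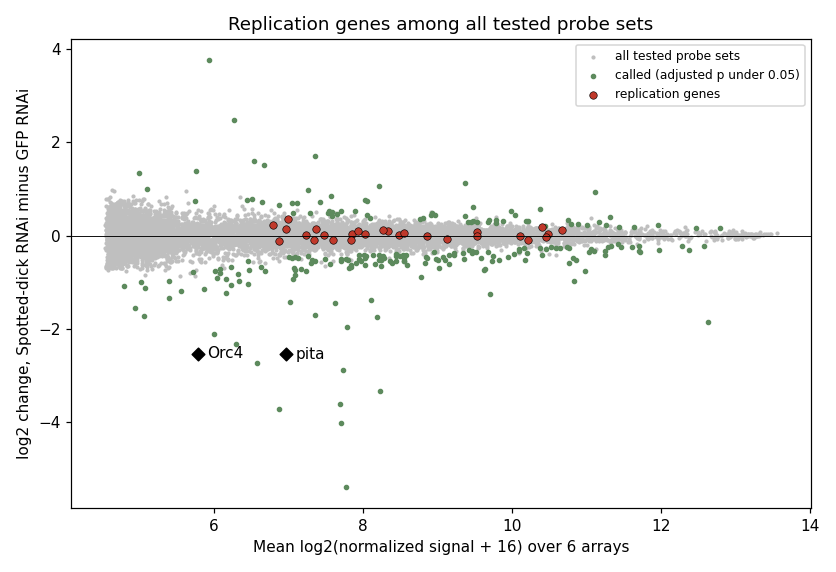
Log2 change, spotted-dick RNAi minus GFP RNAi, against the mean log2(normalized signal + 16) over the 6 arrays for all 11261 tested probe sets (grey), those called (green), the 27 replication genes (red) and pita and Orc4 (black diamonds). The replication genes lie between -0.11 and 0.35, inside the grey band, while pita and Orc4 lie near -2.5.

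For comparison, the origin recognition gene Orc4 fell in spotted-dick RNAi. Its signals were 2.5, 16.2 and 4.2 in spotted-dick RNAi, against 105.9, 130.0 and 117.0 in GFP RNAi. The deposited Orc4 signals in spotted-dick RNAi, 2.7, 14.2 and 4.0, lay under the background level of 17.4, so the size of its fall depends on the constant added before the logarithm. Orc4 changed by -4.13 when 1 was added and by -1.35 when 64 was added.

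Scaling of the arrays turned the sign of many small changes of the 27 genes, none of which was called with or without it. As deposited, the geometric mean signal of the 27 genes was 294.1, 314.5 and 319.0 in spotted-dick RNAi, against 424.6, 375.4 and 297.2 in GFP RNAi. The brightest arrays, GFP replicates 1 and 2, were thus high for the replication genes as well, and GFP replicate 3 was level with spotted-dick RNAi. After quantile normalization these means were 339.5, 329.0 and 364.8 in spotted-dick RNAi, against 321.0, 336.1 and 342.8 in GFP RNAi. As deposited 26 of 27 genes had changes below 0, with a median of -0.24, beside 82.9% of all tested probe sets and a median of -0.20 over all of them. None of the 27 was called (lowest limma adjusted p = 0.520), while 1.26% of all tested probe sets were. Ratios of 3′ to 5′ signal of control probe sets are a sign of RNA integrity. For Gapdh they were 3.03 to 4.04 in spotted-dick RNAi and 2.97 to 3.39 in GFP RNAi. For actin they were 2.74 to 2.97 and 2.6 to 2.82 in the same order. The ratios were highest for eIF-4a, at 8.09 to 9.53 in spotted-dick RNAi and 8 to 9.32 in GFP RNAi.

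**Figure D4:**
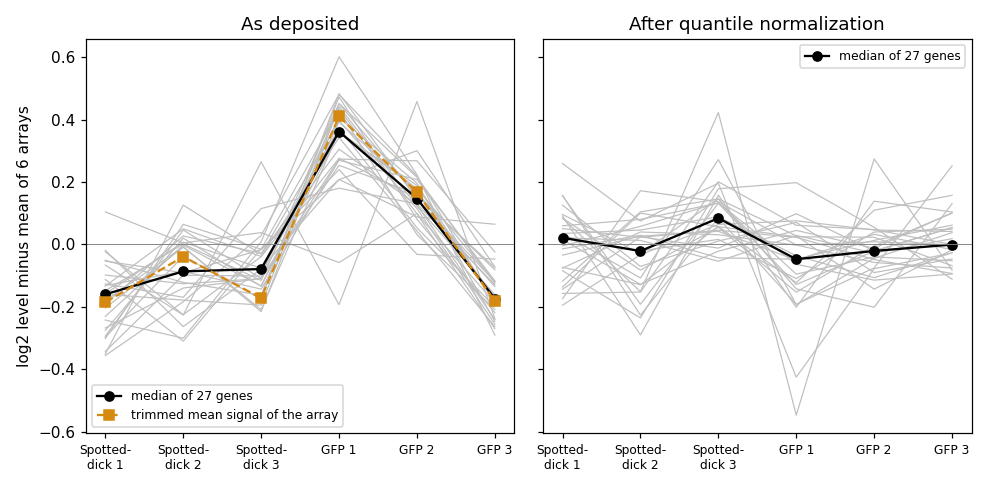
Log2(signal + 16) of each of the 27 replication genes minus its mean over the 6 arrays (grey lines) with their median (black), as deposited (left, with the log2 trimmed mean signal of each array in orange) and after quantile normalization (right), for spotted-dick RNAi and then GFP RNAi arrays. As deposited the genes follow array brightness, with GFP replicates 1 and 2 high, and after normalization the medians of the 6 arrays lie close together.

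Washing used 2 fluidics stations according to the file headers. On station 1 were spotted-dick replicate 1 and GFP replicates 1 and 2, and on station 2 the others. Within station 1 the 27 changes ran from -0.26 to 0.51 with a median of 0.061, and within station 2 from -0.32 to 0.23 with a median of 0.025. The sign was the same in both stations for 12 of the 27 genes. Gnf1 differed most between them, with 0.29 and -0.32. Each within-station value rests on 1 array of 1 group.

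Of 20 further genes of nucleotide synthesis 18 were tested, and 2 of these were called, 1 higher and 1 lower, beside 0.604% higher and 1.43% lower of all tested probe sets. Both act in the synthesis of UMP, the precursor of all pyrimidine nucleotides. The gene r (rudimentary), whose enzyme carries out the first steps, rose in spotted-dick RNAi. Its signals were 217.0, 186.9 and 196.2 in spotted-dick RNAi, against 85.1, 100 and 96.6 in GFP RNAi. No array of GFP RNAi came near those of spotted-dick RNAi, and the change was 0.97 ± 0.11 (SE, limma adjusted p = 6.4e-05), or 1.11 and 0.88 within stations 1 and 2.

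The gene r-l (rudimentary-like), whose enzyme carries out the last steps to UMP, fell. It had 284.7, 313.1 and 296.0 in spotted-dick RNAi, against 426.0, 434.4 and 456.6 in GFP RNAi, with no overlap. The change was -0.54 ± 0.08 (SE, limma adjusted p = 0.00105), and -0.57 and -0.56 within stations 1 and 2. Dhod, the dihydroorotate dehydrogenase that acts between these enzymes, had a change of 0.048 (limma adjusted p = 0.824). As deposited the call for r ended (change 0.72, limma adjusted p = 0.0654), and without the intensity trend that for r-l ended (limma adjusted p = 0.0659).

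The other 16 tested nucleotide synthesis genes were not called. CG6951, a predicted deoxycytidylate deaminase, had 86.2, 93.6 and 96.2 in spotted-dick RNAi, against 60.2, 60.4 and 63.0 in GFP RNAi. Those groups did not overlap, but the change of 0.48 ± 0.12 (SE) just missed the threshold (limma adjusted p = 0.0581, and 0.0434 with the filter at the 60th percentile). The purine synthesis genes Paics and ras (IMP dehydrogenase) had changes of 0.16 and 0.22. The median change of the 18 genes was 0.092, with 15 above and 3 below 0.

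Of 22 further genes that work at or beside the fork 20 were tested and none was called, with changes from -0.19 to 0.32 and a median of 0.030. The smallest p-values belonged to Top3alpha, a topoisomerase that acts with the Blm helicase (change 0.32, limma adjusted p = 0.140, and 0.0204 without spotted-dick replicate 2), elg1, known in yeast for unloading PCNA (0.20, adjusted p = 0.429), Claspin, a checkpoint mediator (0.25, adjusted p = 0.453), and timeout (0.24, adjusted p = 0.472).

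None of 9 tested histone chaperones outside CAF-1 and Asf1 was called either, with a median change of 0.10. The lowest of them was yem, the partner of Hira in histone deposition outside replication. Of the 2 probe sets of yem, the one with the higher mean signal is given. It had 310.1, 229.4 and 305.8 in spotted-dick RNAi, against 321.9, 354.2 and 392.4 in GFP RNAi. The change was -0.33 (limma adjusted p = 0.199), and -0.12 and -0.54 within stations 1 and 2. The other 8 had changes above 0, from 0.071 for Nap1 to 0.18 for Ssrp, and Nph and Nlp, of the nucleoplasmin family, had changes of 0.15 and 0.10. As a description, the spotted-dick RNAi arrays lay wholly above the GFP RNAi arrays for 5 of these 9 genes and wholly below for yem, beside 9.52% and 8.29% of all tested probe sets.

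**Figure D5:**
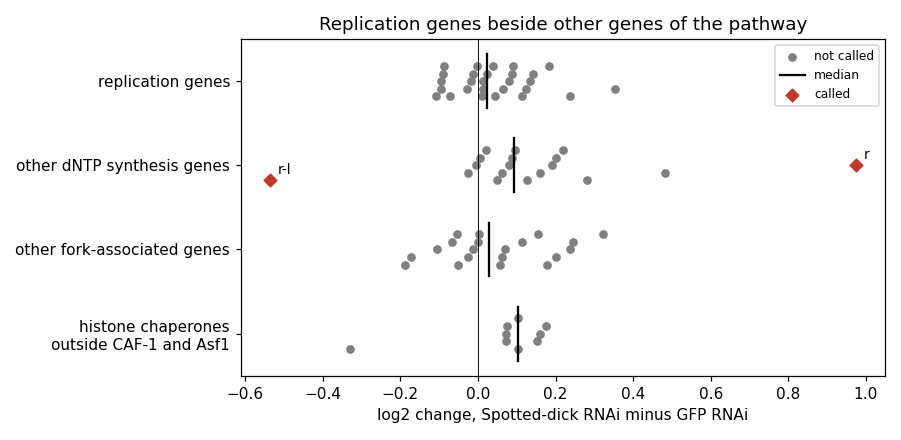
Log2 change, spotted-dick RNAi minus GFP RNAi, of each tested gene of 4 lists, the replication genes, other nucleotide synthesis genes, other fork-associated genes and other histone chaperones (points, spread vertically for legibility), with called genes as red diamonds and the median of each list as a black bar. In these 4 lists r, at 0.97, and r-l, at -0.54, are the called genes, and the 4 medians lie between 0.023 and 0.10.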

How the data were processed

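Per the file headers, each of the 6 samples was hybridised to an Affymetrix Drosophila_2 array. The deposited values are linear intensity, 1 for every probe set on each array; the software behind it is not given in the sources used here. Chip type and wash station were also read from these headers. Groups and replicate numbers came from the sample titles. Probe sets were named through the platform annotation, with gene IDs updated from the RefSeq Release 6 gene table; no sequences were used.

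The 18769 probe sets of fly transcripts were quantile-normalized, and the 11261 whose mean signal reached the 40th percentile (8.4) were tested. The fit was limma 3.58.1 in R 4.3.3 (lmFit, eBayes with an intensity trend) on log2(signal + 16), so changes of dim genes are understated. It was also run on simulated data with independent noise and no effect of scan order or station, so that run cannot address such effects. No arrays held identical values, and their number limits the precision. The background level, 17.4, is the 95th percentile over 100 control probe sets for foreign sequences. Figures used matplotlib 3.10.9 in Python 3.11.15.

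Members, gene lists and tests were chosen with earlier results of these data known. Named were all members, pita, Orc4 and, of the other lists, up to 4 genes with the smallest p; Dhod, Nap1 and others named beyond these were chosen after their values were seen. Alternatives covered scaling, pseudocount, filter, trend, robust estimation, replicate and station blocks and leaving out each array.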

Additional observations from a re-analysis of the deposited data

How the results depend on the processing

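The count of 0 called replication genes was the same under all 17 alternatives run, with a lowest limma adjusted p of 0.0908 (Caf1-55, filter at the 60th percentile). Calls over all probe sets moved from 229 (68 higher, 161 lower) to 142 as deposited (11 higher, 131 lower), 126 with no filter and 54 with no trend. With 1 array left out they ranged from 116 to 249: 116 without GFP replicate 2, 146 without GFP replicate 3 and 142 without spotted-dick replicate 3 moved by over 1.5 times. The cause was not tested, other than that no filter tests 18769 probe sets. The replication genes' median change was -0.238 as deposited, where the median of all tested probe sets was -0.204. Minus the median over everything tested it was 0.015 as reported and -0.034 as deposited and with median centring; this relative value was added after seeing the data. As deposited 16 of 27 genes turned sign, none of them called; elsewhere at most 3 did. Same-numbered arrays did not deviate together (correlations of -0.061, -0.031 and 0.055), so the numbers were not taken as pairs. With the replicate block 198 probe sets and 0 replication genes were called, and with the station block 199 and 0. Averaging a gene's probe sets was not run, since each replication gene had 1 probe set. PolD3 was tested only with no filter.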

Other observations

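Of 6 tested blood cell markers 1 rose and none fell, and of 3 tested markers of other tissues none was called, beside 0.604% higher and 1.43% lower of all tested probe sets. The extracellular peroxidase gene Pxn, a blood cell marker, had signals of 82.9, 63.0 and 72.0 in spotted-dick RNAi, against 25.1, 11.1 and 17.8 in GFP RNAi, and rose by 1.40 ± 0.18 on the log2 scale (SE, limma adjusted p = 0.00039). Of its deposited GFP RNAi values 11.5 and 16.8 lay under the background level of 17.4, so the size depends on the pseudocount, with changes of 2.02 at 1 and 0.74 at 64; its other probe set was not tested. The scavenger receptor gene crq had 555.1, 607.3 and 547.3 in spotted-dick RNAi, against 756.6, 725.4 and 644.8 in GFP RNAi, and its change of -0.31 was not called (limma adjusted p = 0.0552), while crq was called in 3 of 17 alternatives (0.0451 with robust estimation, 0.0297 without spotted-dick replicate 2 and 0.0416 without GFP replicate 3). Of the markers of other tissues, the neuronal gene elav exceeded the background of 17.4 on all 6 arrays as deposited. The marker vas did so on 2 arrays and Lsp2 on 1, while nSyb and Yp1 did so on none. Deposited means of elav were 61.3 ± 1.1 in spotted-dick RNAi and 101.0 ± 15.5 in GFP RNAi (SD, n = 3 each). After normalization elav had 68.2, 67.5 and 72.2 in spotted-dick RNAi, against 84.8, 73.1 and 124.6 in GFP RNAi. Its change of -0.34 was not called (limma adjusted p = 0.388).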
